A study of Mus musculus with 10 samples.

Results

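The iron-handling set held 10 genes of the 30074 in the table, chosen by symbol: the hormone hepcidin (Hamp), the exporter ferroportin (Slc40a1), the uptake genes Tfrc, Steap3 and Slc11a2, the ferritin chains Fth1 and Ftl1, the ferritin receptor of autophagy Ncoa4, and the iron regulatory proteins Aco1 and Ireb2. All 10 were found, and all 10 passed the filter at a mean of 0.5 FPKM (a level scaled to the length of the gene and to the size of the library). Expression had been measured by RNA sequencing of hearts of wild-type (WT) C57BL/6 male mice, aged 8 to 12 weeks and weighing about 25 g. Every mouse had received lipopolysaccharide (LPS), a bacterial endotoxin, by intraperitoneal injection as a model of septic cardiomyopathy. In the LPS+ART group (n = 5), artesunate, an endoperoxide antimalarial, was injected at a dose of 50 mg/kg, first 10 min ahead of LPS and then 4 h after it. The LPS+Vehicle group (n = 5) received vehicle. The design places the assessment of the heart 24 h after LPS, and the time of collection for RNA was not given separately. Hearts without LPS were not analysed here, so no value below has an unstimulated baseline. Endotoxin alone stands for sepsis in this model, with no live infection.

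Hepcidin is a peptide hormone, made mainly in the liver, that binds ferroportin and removes it from the cell surface, so that iron stays inside the cell. Interleukin 6, through STAT3, and bone morphogenetic proteins, through SMAD factors, are the known inducers of hepcidin transcription in the liver, and cardiomyocytes are known to make hepcidin of their own. Cells take up transferrin-bound iron through the transferrin receptor, reduce it with STEAP3, pass it to the cytosol through DMT1, and store it in ferritin, which NCOA4 delivers to the lysosome. The iron regulatory proteins bind hairpins named iron-responsive elements when iron is low: at the 5′ end of an mRNA they block translation, and in the 3′ untranslated region of Tfrc they stabilise the mRNA.

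The promoter of Hamp is shown because Hamp had the largest change of the set, and that of its neighbouring copy Hamp2 because the copy was almost silent in the same hearts. Each line gives the 250 bases before the start of transcription, 5′ to 3′, from RefSeq on GRCm38.p6. Hamp lies at chr7:30944030-30944279 and Hamp2 at chr7:30924182-30924431, both on the minus strand. Capitals mark matches to GGCGCC, the core of a bone morphogenetic protein response element, and to TTCNNNGAA, a STAT motif.
Hamp: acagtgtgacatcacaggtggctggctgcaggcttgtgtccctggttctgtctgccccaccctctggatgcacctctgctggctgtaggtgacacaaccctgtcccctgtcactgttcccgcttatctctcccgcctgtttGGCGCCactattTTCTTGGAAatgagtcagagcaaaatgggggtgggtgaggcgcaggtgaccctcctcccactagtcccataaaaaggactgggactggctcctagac
Hamp2: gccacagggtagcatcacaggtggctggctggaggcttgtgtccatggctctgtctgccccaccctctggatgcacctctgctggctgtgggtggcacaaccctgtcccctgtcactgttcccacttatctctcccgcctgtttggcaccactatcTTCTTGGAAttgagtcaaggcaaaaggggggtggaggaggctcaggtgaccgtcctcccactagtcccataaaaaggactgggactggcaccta
With the start of transcription as the zero point, GGCGCC spanned positions -109 to -104 of Hamp and TTCTTGGAA positions -97 to -89. In Hamp2 the letters TTCTTGGAA spanned positions -94 to -86, and GGCGCC was not found in this window. Over both strands, TTCNNNGAA was present in 8.30% and GGCGCC in 11.9% of 32851 promoter windows, which reach from 250 bases before to 50 bases after a start. The windows of Hamp and Hamp2 were 91.1% identical. Of the 10 genes, 8 had a window. Among these 8, TTCNNNGAA was found in Hamp only, and GGCGCC in Hamp and in 1 of the 2 windows of Tfrc. The antioxidant response core TGACNNNGC was found only in 1 of the 3 windows of Ncoa4. The hypoxia response core ACGTG was found in both windows of Tfrc and in 2 of the 3 windows of Ncoa4. These cores were present in 12.4% and 19.6% of all windows. The letters CAGTGN within the 50 bases after the start were found in Steap3 only, and in 7.08% of all windows.

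The iron-responsive elements are shown because they link the iron regulatory proteins to other genes of the set, of which 4 matched the pattern used here. They were searched in GENCODE M21 transcripts (GRCm38) as a bulged C, 5 bases, the loop CAGTGN with any last base but G, and 5 bases that pair with the first 5, with 2 further pairs below the bulge and G-T pairs allowed. Capitals mark the bulged C and the loop, and the letters are those of the DNA.
Fth1: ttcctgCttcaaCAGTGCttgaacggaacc
Ftl1: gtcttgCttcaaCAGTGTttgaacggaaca
Slc40a1: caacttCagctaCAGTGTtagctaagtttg
Tfrc site 1: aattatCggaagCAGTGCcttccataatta
Tfrc site 2: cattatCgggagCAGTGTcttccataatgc
Tfrc site 3: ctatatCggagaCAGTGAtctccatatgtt
Tfrc site 4: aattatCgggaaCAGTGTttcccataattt
The sites of Fth1 (chr19:9982732-9982761, plus strand), Ftl1 (chr7:45459778-45459807, minus strand) and Slc40a1 (chr1:45925464-45925493, minus strand) lay in the 5′ untranslated region. The 4 sites of Tfrc that matched lay in its 3′ untranslated region on the plus strand, the first at chr16:32631219-32631248 and the last at chr16:32631710-32631739. This pattern was found in the 5′ untranslated region of 8 and in the 3′ untranslated region of 9 of 21901 protein-coding genes. Epas1 and Cdc42bpa, known to carry such an element, gave no match. A gene or site without a match, Slc11a2 of this set among them, may therefore still hold an element. RNA sequencing does not measure translation, so the effect of a 5′ site cannot be read from the values below.

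Across all genes, limma called 64.6% of 13314 tested genes at a Benjamini-Hochberg adjusted p under 0.05, 11.8% higher and 52.9% lower in LPS+ART hearts. The median log2 fold change of all genes was -0.27 with the values as deposited and 0.02 after median-ratio scaling between libraries, where 60.2% of genes were called, 29.9% higher and 30.3% lower. Changes of the iron-handling set are therefore given on both scales, and those of other genes as deposited unless scaling is named. All log2 fold changes are LPS+ART over LPS+Vehicle of log2(FPKM + 1), so that the change of a low gene is understated. The libraries held 30684056 to 36679402 reads in LPS+ART hearts and 29980900 to 54222272 in LPS+Vehicle, as recovered from the values. LPS+ART replicates 3 and 4 stood apart in neutrophil markers, with summed levels of 229 and 118 FPKM against 28.1 to 50.3 in the other LPS+ART hearts. LPS+Vehicle replicates 2 and 5 were nearly alike, since their reads differed by a chi-square of 1.76 for each degree of freedom. The remaining pairs of a group gave 13.6 to 47.9, and the labels do not tie replicates 2 and 5 to one animal. By this measure LPS+ART replicates 3 and 4 also stood apart over all genes compared, at 34.0 to 47.9 against the other LPS+ART hearts. Replicates 3 and 4 gave 17.6 with each other, and the pairs among LPS+ART replicates 1, 2 and 5 gave 21.8 to 24.2. The atrial myosin light chain gene Myl7 reached 71.4 FPKM in LPS+ART replicate 5, and 22.6 and 19.6 FPKM in LPS+Vehicle replicates 2 and 5, while no other heart exceeded 0.22 FPKM. Cardiomyocyte markers were abundant in every heart, with summed levels of 6750 to 8595 FPKM in LPS+ART hearts and 5774 to 6255 in LPS+Vehicle. In whole hearts, fewer cells of a type and less RNA per cell cannot be told apart.

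Of the 10 iron-handling genes, Hamp was called higher and Slc40a1, Steap3, Ireb2, Aco1 and Ncoa4 were called lower, while Tfrc, Fth1, Ftl1 and Slc11a2 were not called. The 1 of 10 called higher and the 5 of 10 called lower stand beside 11.8% and 52.9% of all genes. For the 10 genes the median log2 fold change was -0.39, and -0.09 after median-ratio scaling, beside -0.27 and 0.02 for all genes. After median-ratio scaling, Hamp, Fth1 and Slc11a2 were called higher and Steap3, Ireb2, Aco1 and Ncoa4 lower. Every LPS+ART heart lay above every LPS+Vehicle heart for Hamp and below every one for Steap3, Ireb2, Aco1 and Ncoa4. Such separation was seen in 50.1% of all genes, 7.54% upward and 42.5% downward.

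**Figure D1:**
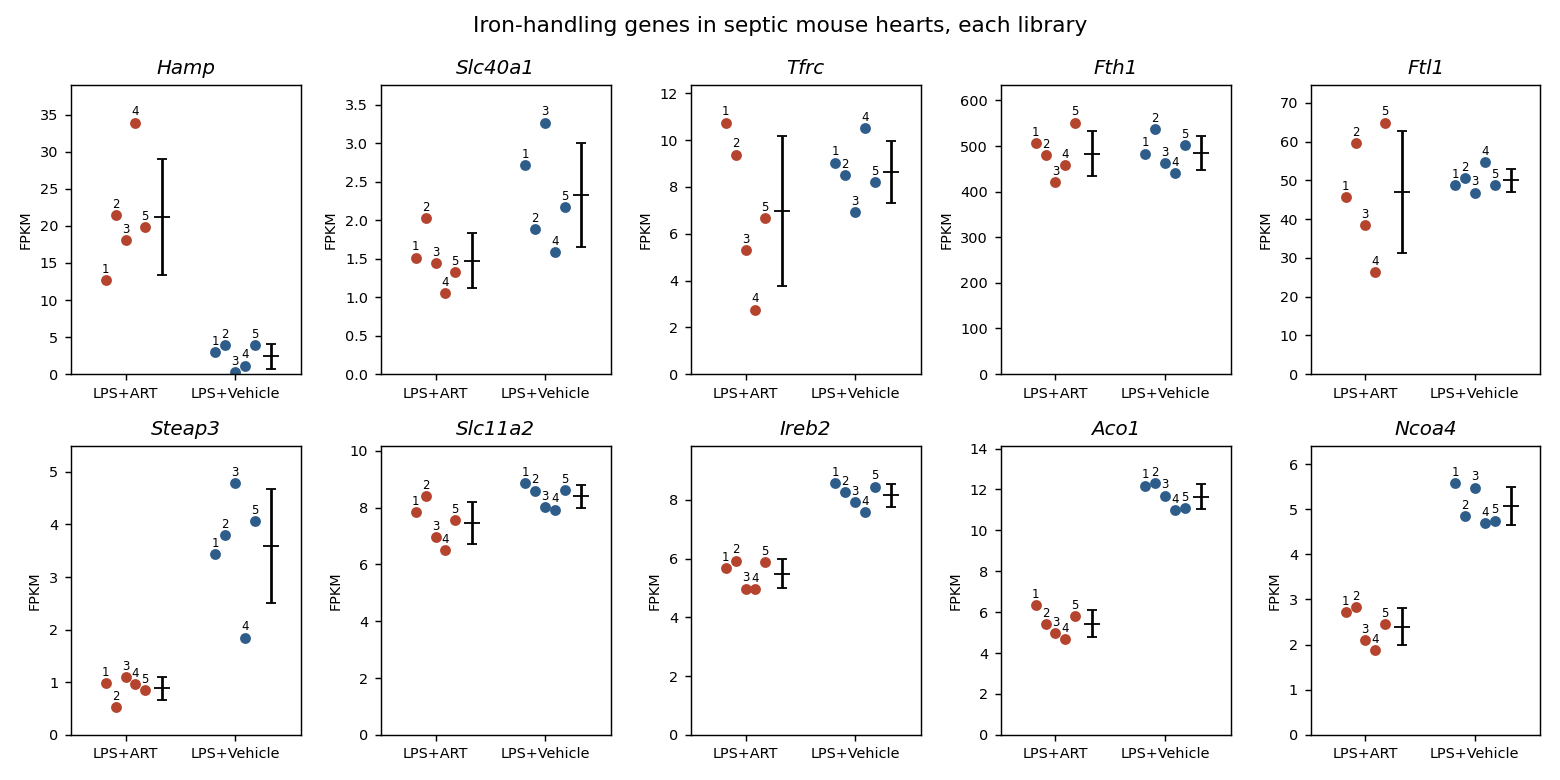
FPKM of the 10 iron-handling genes in each heart, LPS+ART in red and LPS+Vehicle in blue, with replicate numbers beside the points and the mean ± SD (n = 5) as a black bar. The groups are apart for Hamp, Steap3, Ireb2, Aco1 and Ncoa4 and overlap for the other 5 genes.

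By level per length, Fth1 was the most abundant in LPS+ART hearts at 484 FPKM, followed by Ftl1 at 47.0 and Hamp at 21.2. Slc11a2, Tfrc, Ireb2 and Aco1 followed at 7.46 to 5.44 FPKM, and Ncoa4, Slc40a1 and Steap3 stood at 2.40, 1.47 and 0.884. In LPS+Vehicle hearts Fth1 and Ftl1 again led, at 485 and 50.0 FPKM, but Hamp stood ninth of the 10, at 2.44. Neighbours in the LPS+ART order from Slc11a2 to Aco1 differed by less than the larger of their SDs, as did Tfrc, Slc11a2 and Ireb2, and also Steap3, Hamp and Slc40a1, in the LPS+Vehicle order.

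Hamp, the iron hormone, was the only gene of the set called higher with the values as deposited. It stood at 12.7, 21.4, 18.04, 33.9 and 19.9 FPKM in LPS+ART replicates 1 to 5, against 2.93, 3.93, 0.225, 1.14 and 3.96 FPKM in LPS+Vehicle replicates 1 to 5. The lowest LPS+ART heart was above the highest LPS+Vehicle heart, and the spread within LPS+Vehicle was wide, with replicates 3 and 4 well under the other 3. The means were 21.2 ± 7.84 FPKM in LPS+ART hearts and 2.44 ± 1.69 FPKM in LPS+Vehicle hearts (n = 5 each, SD), an 8.70-fold higher mean. Its log2 fold change was 2.81 (SE 0.38, limma adjusted p = 7.2e-05), the 20th highest of 13314 genes, and 3.12 after median-ratio scaling (limma adjusted p = 6.0e-05).

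The values of this short gene rested on 190 to 463 reads per library in LPS+ART hearts and on 5 to 55 reads in LPS+Vehicle, the 5 in replicate 3. Without that library the mean of LPS+Vehicle was 2.99 FPKM and the ratio 7.09. Read numbers may count the mates of a pair apart, so reads are not taken as independent, and counting error is largest where the reads are fewest.

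Hamp2, the neighbouring copy, held 0 to 3 reads per library in LPS+ART hearts and 0 or 1 in LPS+Vehicle, and 3 reads correspond to 0.0949 to 0.172 FPKM. Its longest coding transcript was 88.8% identical to that of Hamp over the alignment. Reads could be shared between such copies, so the values are those of the authors' assignment. In the GRCm38 annotation, Gm10252 overlaps exons of Ftl1 and Gm5475 overlaps Slc11a2, each on the opposite strand, at means of 0.360 and 0.0276 FPKM, and without a stated strand setting their reads cannot be told apart from those of the partner.

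Markers of other tissues were set beside Hamp because hepcidin is known as a liver product. The 7 hepatocyte markers summed to 0.870 to 1.52 FPKM in LPS+ART hearts and 0.979 to 2.24 in LPS+Vehicle, so that all 7 together were below Hamp in every LPS+ART heart. In LPS+Vehicle replicates 3 and 4 they were above it, at 0.979 and 1.52 FPKM against 0.225 and 1.14 FPKM of Hamp. Albumin (Alb) stood at 0.151 to 0.616 FPKM in LPS+ART hearts and 0.0709 to 0.385 in LPS+Vehicle. Of the 7 markers 1 passed the filter, and it was not called. Markers of red cells moved with Hamp: of 5 tested 4 were called higher. Their summed level was 56.9 to 129 FPKM in LPS+ART hearts and 19.99 to 66.7 in LPS+Vehicle. In LPS+Vehicle this sum and Hamp were both highest in replicates 2 and 5 and lowest in replicate 3. In LPS+ART both were lowest in replicate 1, but the sum was highest in replicate 2 and Hamp in replicate 4. Of 6 cardiomyocyte markers 3 were called higher (Myl2, Actc1 and Tnni3) and 1 lower, and 4 and 0 after median-ratio scaling, with the sums given above. The part of red cells and cardiomyocytes in the result was not tested. Of 5 tested atrial markers 0 were called higher and 1 lower, with sums of 30.4 to 245 FPKM in LPS+ART hearts and 50.3 to 218 in LPS+Vehicle. The LPS+ART heart with the highest Myl7 had 19.9 FPKM of Hamp, in the middle of its group. The 2 LPS+Vehicle hearts that held Myl7, replicates 2 and 5, had the highest Hamp of theirs, at 3.93 and 3.96 FPKM. These 2 libraries were nearly alike in their reads, as given above, and may not be separate observations. With these 3 libraries left out, a choice made after seeing the data, the log2 fold change of Hamp was 3.29 (limma adjusted p = 6.8e-04).

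Il6, which encodes the cytokine that induces hepcidin in the liver, stood at 12.5, 16.4, 21.4, 39.2 and 13.9 FPKM in LPS+ART replicates 1 to 5, against 0.990, 1.14, 0.289, 1.61 and 0.767 FPKM in LPS+Vehicle replicates 1 to 5. In LPS+ART both genes were highest in replicate 4 and lowest in replicate 1. In LPS+Vehicle both were lowest in replicate 3, but Il6 was highest in replicate 4, where Hamp was next to lowest.

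**Figure D2:**
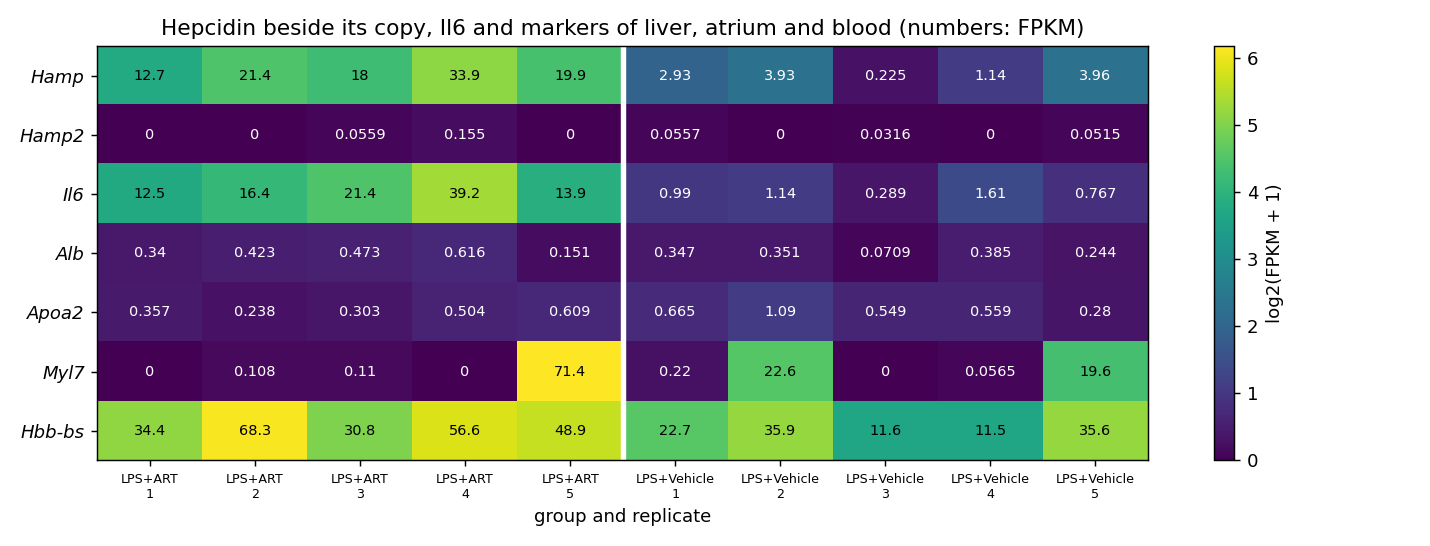
Heat map of Hamp, its copy Hamp2, Il6, the hepatocyte genes Alb and Apoa2, the atrial gene Myl7 and the haemoglobin gene Hbb-bs (rows) in each heart (columns), coloured by log2(FPKM + 1) with the FPKM printed in each cell. Hamp is at 12.7 to 33.9 FPKM in LPS+ART hearts and 0.225 to 3.96 in LPS+Vehicle, while Alb is under 1 FPKM in every heart.

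Slc40a1, which encodes ferroportin, the receptor of hepcidin and the only known exporter of iron from mammalian cells, fell. It stood at 1.51, 2.03, 1.44, 1.05 and 1.33 FPKM in LPS+ART replicates 1 to 5, against 2.72, 1.88, 3.27, 1.58 and 2.17 FPKM in LPS+Vehicle replicates 1 to 5. The groups overlapped: LPS+ART replicate 2 was above LPS+Vehicle replicates 2 and 4, and the other 4 LPS+ART hearts were below every LPS+Vehicle heart. On the log2 scale the difference was -0.41 (SE 0.14, limma adjusted p = 0.0236). The call did not hold after median-ratio scaling, where the log2 fold change was -0.16 (limma adjusted p = 0.305), nor with LPS+ART replicate 4, LPS+Vehicle replicate 1 or LPS+Vehicle replicate 3 left out (limma adjusted p = 0.0588, 0.0586 and 0.0552).

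Ferroportin is known to be abundant in macrophages that recycle red cells, so macrophage markers were set beside it. Of 7 such markers 5 were called lower and 1, Timd4, higher, beside 52.9% and 11.8% of all genes. After median-ratio scaling, where Slc40a1 was not called, 5 were lower and 2, Timd4 and Lyve1, higher, beside 30.3% and 29.9%. Their summed level was 21.7 to 35.1 FPKM in LPS+ART hearts and 46.9 to 72.5 in LPS+Vehicle. Within LPS+ART, replicate 2 had the lowest sum, 21.7 FPKM, but the highest Slc40a1, 2.03 FPKM. Within LPS+Vehicle, replicate 3 was highest and replicate 4 lowest in both. Cd163, 1 of the 7 markers, encodes the receptor for haemoglobin bound to haptoglobin. It stood at 1.06 ± 0.664 FPKM in LPS+ART hearts and 9.13 ± 2.29 FPKM in LPS+Vehicle hearts (n = 5 each, SD). The part of these cells in the change of Slc40a1 was not tested.

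**Figure D3:**
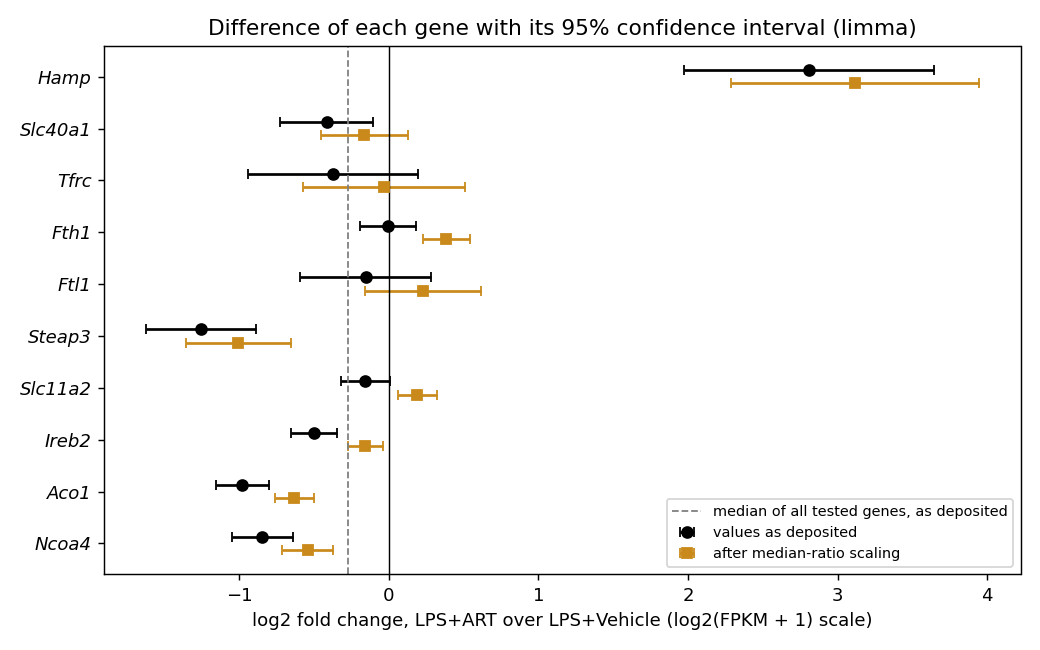
Log2 fold change of each iron-handling gene, LPS+ART over LPS+Vehicle, with its 95% confidence interval from limma, for the values as deposited (black circles) and after median-ratio scaling (orange squares). The dashed line marks the median of all tested genes as deposited, -0.27, and Fth1 and Slc11a2 are the genes whose interval leaves 0 on the upper side only after scaling.

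Tfrc, which encodes transferrin receptor 1, the main entry for transferrin-bound iron, was not called. It stood at 10.7, 9.38, 5.29, 2.76 and 6.66 FPKM in LPS+ART replicates 1 to 5, against 9.04, 8.50, 6.93, 10.5 and 8.21 FPKM in LPS+Vehicle replicates 1 to 5. The LPS+ART hearts held both the highest and the lowest value of the study, with replicates 3 and 4 at the bottom, and their SD of 3.19 compares with 1.31 in LPS+Vehicle. In the limma fit its log2 fold change was -0.37 (95% confidence interval -0.94 to 0.20, limma adjusted p = 0.229) and -0.03 after median-ratio scaling. With LPS+ART replicates 3 and 4 left out the sign turned, to 0.031 (limma adjusted p = 0.874).

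Steap3, the reductase that turns endosomal ferric iron into ferrous iron, had the largest fall of the set. It stood at 0.984, 0.532, 1.09, 0.968 and 0.844 FPKM in LPS+ART replicates 1 to 5, against 3.44, 3.80, 4.78, 1.85 and 4.06 FPKM in LPS+Vehicle replicates 1 to 5. All 5 LPS+ART hearts were below the lowest LPS+Vehicle heart, replicate 4. The LPS+Vehicle mean was 4.05 times that of LPS+ART, and the log2 fold change was -1.25 (SE 0.17, limma adjusted p = 6.8e-05) and -1.004 after median-ratio scaling (limma adjusted p = 3.2e-04).

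Slc11a2, which encodes DMT1, the transporter that moves ferrous iron across the endosomal membrane, depended on the scaling for its direction. It stood at 7.86, 8.40, 6.96, 6.51 and 7.55 FPKM in LPS+ART replicates 1 to 5, against 8.85, 8.60, 8.02, 7.93 and 8.61 FPKM in LPS+Vehicle replicates 1 to 5. Only LPS+ART replicate 2 reached into the range of LPS+Vehicle. The log2 fold change was -0.16 as deposited (limma adjusted p = 0.0846), but 0.19 after median-ratio scaling (limma adjusted p = 0.0154).

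Fth1, the ferritin heavy chain with ferroxidase activity, was the most abundant gene of the set, and its groups overlapped. It stood at 507, 480, 421, 459 and 551 FPKM in LPS+ART replicates 1 to 5, against 484, 537, 462, 440 and 502 FPKM in LPS+Vehicle replicates 1 to 5. Its log2 fold change was -0.01 (95% confidence interval -0.19 to 0.18, limma adjusted p = 0.955), but after median-ratio scaling it was 0.39 and called higher (limma adjusted p = 7.8e-04). With the trend of change with expression level removed by cyclic loess it was -0.14 and not called (limma adjusted p = 0.147).

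Ftl1, the ferritin light chain, which helps the iron core to form, was not called on any of these 3 scales. It stood at 45.7, 59.6, 38.5, 26.4 and 64.9 FPKM in LPS+ART replicates 1 to 5, against 48.8, 50.6, 46.8, 54.8 and 48.8 FPKM in LPS+Vehicle replicates 1 to 5. As with Tfrc, LPS+ART replicates 3 and 4 were the lowest hearts of the study, and the SD of LPS+ART was 15.6 against 2.996 in LPS+Vehicle. On the log2 scale the difference was -0.15 (95% confidence interval -0.59 to 0.28, limma adjusted p = 0.521), and 0.23 after median-ratio scaling (limma adjusted p = 0.276). With LPS+ART replicates 3 and 4 left out under that scaling, a choice made after seeing the data, Ftl1 was called higher, by 0.50 (limma adjusted p = 0.00758).

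The ratio of Ftl1 to Fth1, in which any scaling of a library cancels, was 0.0961 ± 0.0264 in LPS+ART hearts and 0.104 ± 0.0119 in LPS+Vehicle hearts (n = 5 each, SD). Ferritin genes have processed pseudogenes that can share their reads. Of those looked up, Ftl1-ps1 stood at 2.03 ± 0.814 FPKM in LPS+ART hearts and 2.17 ± 0.578 in LPS+Vehicle, and its ratio to Ftl1 was 0.0427 ± 0.00470 in LPS+ART hearts and 0.0433 ± 0.0116 in LPS+Vehicle.

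**Figure D4:**
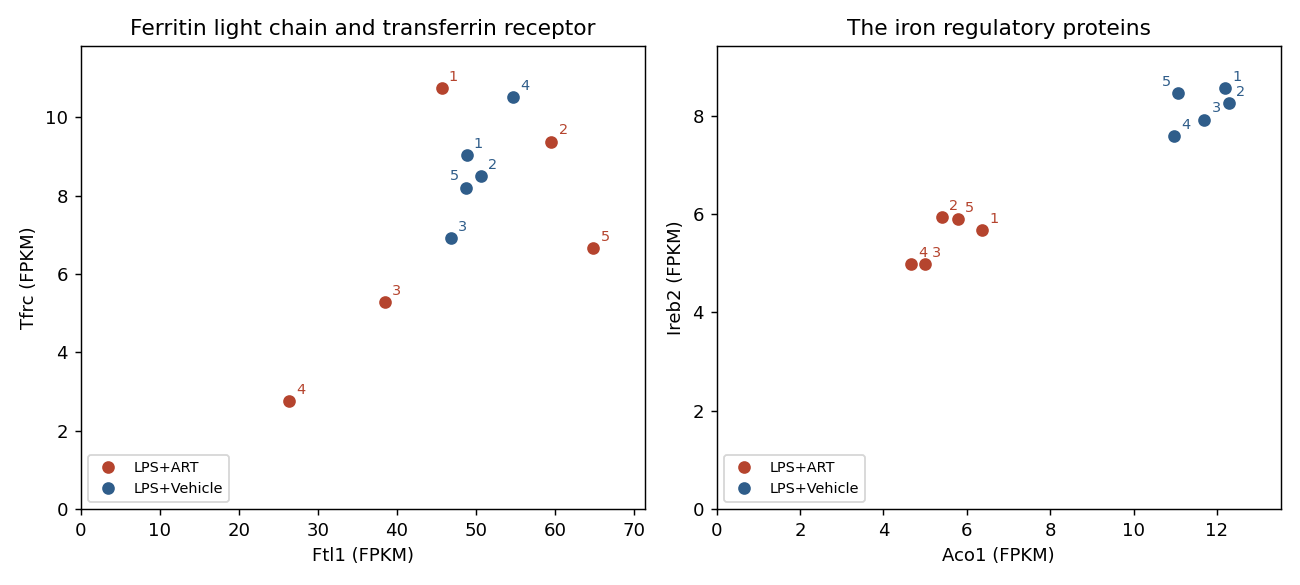
Tfrc against Ftl1 (left) and Ireb2 against Aco1 (right) in FPKM, one point per heart with its replicate number, LPS+ART in red and LPS+Vehicle in blue. On the left LPS+ART replicates 3 and 4 have the lowest values of both genes, and on the right the groups form separate clouds, with Aco1 at 4.67 to 6.36 FPKM in LPS+ART hearts and 10.98 to 12.3 in LPS+Vehicle.

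Ncoa4, the receptor that carries ferritin to the lysosome so that its iron is released, fell. It stood at 2.73, 2.82, 2.09, 1.88 and 2.46 FPKM in LPS+ART replicates 1 to 5, against 5.57, 4.85, 5.48, 4.68 and 4.75 FPKM in LPS+Vehicle replicates 1 to 5. The groups did not overlap and the spread within each was small. In the limma fit its log2 fold change was -0.84 (SE 0.09, limma adjusted p = 1.9e-05), and -0.54 after median-ratio scaling (limma adjusted p = 1.5e-04). The ratio of Fth1 to Ncoa4 within a library was 170 to 244 in LPS+ART hearts and 84.3 to 111 in LPS+Vehicle, with no overlap.

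Aco1, which encodes iron regulatory protein 1, a cytosolic aconitase that binds iron-responsive elements when it lacks its iron-sulphur cluster, had the smallest adjusted p of the set. It stood at 6.36, 5.40, 4.99, 4.67 and 5.79 FPKM in LPS+ART replicates 1 to 5, against 12.2, 12.3, 11.7, 10.98 and 11.1 FPKM in LPS+Vehicle replicates 1 to 5. The lowest LPS+Vehicle heart was above the highest LPS+ART heart by far more than the spread of either group. The log2 fold change was -0.98 (SE 0.08, limma adjusted p = 5.7e-06), and -0.63 after median-ratio scaling (limma adjusted p = 1.8e-05).

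Ireb2, which encodes iron regulatory protein 2, whose level is set by degradation when iron is plentiful, fell less. It stood at 5.68, 5.93, 4.98, 4.97 and 5.89 FPKM in LPS+ART replicates 1 to 5, against 8.56, 8.26, 7.92, 7.58 and 8.45 FPKM in LPS+Vehicle replicates 1 to 5. The groups did not overlap. Its log2 fold change was -0.50 (SE 0.07, limma adjusted p = 9.7e-05), and -0.16 after median-ratio scaling (limma adjusted p = 0.0264), where it stayed within the call by a small margin. Within each library the ratio of Ireb2 to Aco1 was 0.893 to 1.099 in LPS+ART hearts and 0.672 to 0.763 in LPS+Vehicle, so the groups did not overlap in this ratio either.

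The other genes of the pathway were taken from 6 lists with 97 genes, of which 82 were tested. Of these 8 were called higher and 38 lower, with a median log2 fold change of -0.22, and with median-ratio scaling 30 were higher and 13 lower, with a median of 0.10. Beside these stand the medians of all genes, -0.27 and 0.02, and the shares of all genes called, 11.8% higher and 52.9% lower as deposited, and 29.9% and 30.3% after scaling. The counts of the single lists are to be read against the same shares.

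Among genes that control hepcidin, 2 of 19 tested were called higher and 8 lower, and with median-ratio scaling 10 were higher and 2 lower. The counts as deposited, 2 and 8 of 19, lie near the 11.8% and 52.9% of all genes, and those after scaling stand beside 29.9% and 30.3%. The median log2 fold change of the list was -0.04, and 0.34 after that scaling. Il6 rose by a log2 fold change of 3.39 (SE 0.28, limma adjusted p = 5.7e-06), and Smad1, which carries the signal of bone morphogenetic proteins, rose to 7.97 ± 1.09 FPKM in LPS+ART hearts, against 3.73 ± 0.741 in LPS+Vehicle. Hjv and Neo1, which act at the cell surface in the same pathway, fell. Hjv (hemojuvelin, a co-receptor of muscle and liver) stood at 29.1 ± 5.38 FPKM in LPS+ART hearts and 63.2 ± 15.1 in LPS+Vehicle, and Neo1 (neogenin, which binds hemojuvelin) at 2.61 ± 0.268 FPKM in LPS+ART hearts and 9.09 ± 2.28 in LPS+Vehicle. These 2 were the ones still called lower after scaling. Bmp6, the ligand that reports iron stores to the liver, stood at 3.51 ± 0.400 FPKM in LPS+ART hearts and 5.68 ± 1.502 in LPS+Vehicle, and lost its call after scaling (limma adjusted p = 0.157).

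Among other uptake, export and carrier genes, 2 of 17 tested were called higher and 7 lower, and 3 and 6 after median-ratio scaling. Steap4, a metalloreductase of inflamed tissue, stood at 118 ± 25.1 FPKM in LPS+ART hearts and 54.0 ± 5.25 in LPS+Vehicle, opposite to Steap3. Slc39a14, which encodes ZIP14, a route for iron not bound to transferrin, stood at 38.3 ± 3.56 FPKM in LPS+ART hearts and 26.0 ± 6.08 in LPS+Vehicle. Both stayed higher after scaling. Lrp1 is a receptor that takes up haem bound to haemopexin, and Slc11a1 encodes NRAMP1, an iron transporter of the macrophage phagosome. Cd163, Lrp1 and Slc11a1 fell by 2.33, 0.93 and 0.78 on the log2 scale. Cd163 is itself among the macrophage markers whose fall is given above. Hmox1, which encodes haem oxygenase 1 and frees iron from haem, stood at 122 ± 46.3 FPKM in LPS+ART hearts and 30.5 ± 15.1 in LPS+Vehicle.

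Of 6 tested genes of iron storage, ferritin turnover and iron chaperones 0 were called higher and 4 lower, and 1 and 1 after median-ratio scaling. Herc2, a ubiquitin ligase that targets NCOA4, stood at 3.42 ± 0.865 FPKM in LPS+ART hearts and 7.57 ± 0.984 in LPS+Vehicle and stayed lower after scaling. The iron chaperone genes Pcbp1 and Pcbp2, which deliver iron to ferritin, fell by 0.45 each on the log2 scale and lost their calls after scaling (limma adjusted p = 0.356 and 0.395).

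Iron-sulphur cluster assembly begins in mitochondria and goes on in the cytosol. In the mitochondrial list, which includes iron import, 3 of 25 tested were called higher and 10 lower, and 13 and 0 after median-ratio scaling. Cisd1, which encodes mitoNEET of the outer membrane, stood at 96.8 ± 8.97 FPKM in LPS+ART hearts and 81.6 ± 5.54 in LPS+Vehicle, and Slc25a28, a mitochondrial iron importer, at 11.1 ± 0.327 FPKM in LPS+ART hearts and 9.72 ± 0.734 in LPS+Vehicle. Bola3, which helps to insert clusters into mitochondrial proteins, rose by 0.35 on the log2 scale. Abcb10, a transporter of the inner mitochondrial membrane, and Bola1 fell by 0.54 and 0.48, and lost their calls after scaling. In the cytosolic list 0 of 11 were called higher and 7 lower, and 1 and 3 after scaling, beside 52.9% of all genes lower as deposited and 30.3% after scaling. The 3 that stayed lower were Ciapin1, at 2.75 ± 0.649 FPKM in LPS+ART hearts and 9.45 ± 0.473 in LPS+Vehicle, Ciao3, at 2.34 ± 0.470 in LPS+ART hearts and 6.77 ± 0.465 in LPS+Vehicle, and Ciao1, at 4.71 ± 1.21 in LPS+ART hearts and 10.7 ± 1.42 in LPS+Vehicle. Ciapin1 carries electrons for cluster assembly, and Ciao3 and Ciao1 hand finished clusters to their target proteins. Whether the lists differ from each other was not tested.

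Of 5 other transcripts known to carry an iron-responsive element 4 were tested. Epas1, which encodes HIF-2α, and Cdc42bpa fell by 0.65 and 0.41 on the log2 scale, and Cdc42bpa lost its call after scaling (limma adjusted p = 0.0985). Alas2, the erythroid enzyme that opens haem synthesis, rose by 0.58 and also belongs to the red cell markers that rose.

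**Figure D5:**
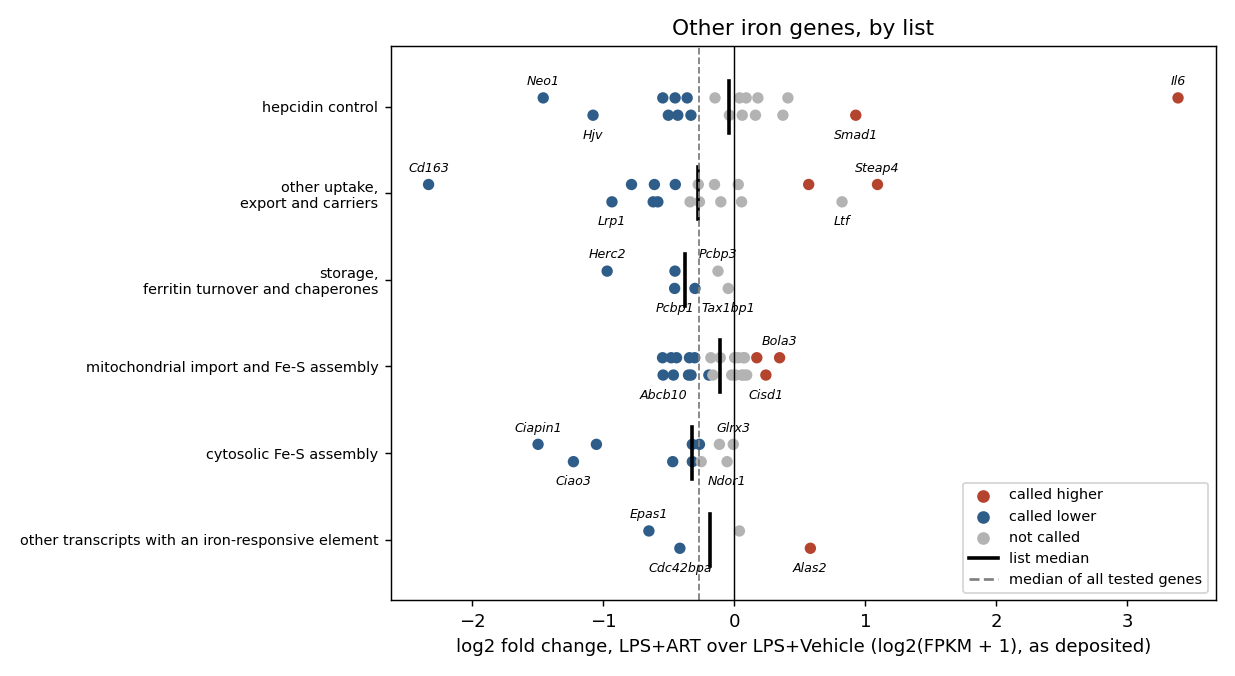
Log2 fold change of each tested gene of the 6 other iron lists, LPS+ART over LPS+Vehicle, with values as deposited, red for called higher, blue for called lower and grey for not called. Black bars give list medians and the dashed line the median of all genes, -0.27, and Il6 at 3.39 and Cd163 at -2.33 are the extremes.

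Likeness of pattern was described by Pearson's r of log2(FPKM + 1) over the 10 hearts, among genes that averaged 5 FPKM or more. These points share libraries and the difference between the groups, so the values are descriptions. Nearest to Hamp were Nfkbia, an inhibitor of NF-kB, with r = 0.98, Pfkfb3, an activator of glycolysis, with r = 0.98, and Dusp1, a phosphatase of MAP kinases, with r = 0.97. With group means removed, Dhx38, Nfkbia and Zfand3 were nearest, with r = 0.91, 0.90 and 0.90. Nearest to Slc40a1 were Usf1, Rai2 and Ppp1r3c, with r = 0.95 each, and with group means removed Dsg2, Usp24 and Palld, with r = 0.97, 0.96 and 0.94. Nearest to Tfrc were the tubulin genes Tubb4b and Tuba1b, with r = 0.99 and 0.94, and the ribosomal gene Rpsa, with r = 0.94. With group means removed Tubb4b was again the nearest, with r = 0.99, before Cct7 and Tmem230, with r = 0.97 and 0.96. Tubb4b stood at 72.7 and 39.1 FPKM in LPS+ART replicates 3 and 4, the hearts with the lowest Tfrc, against 78.9 to 119 FPKM in the other LPS+ART hearts.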

How the data were processed

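Hearts, 5 LPS+ART and 5 LPS+Vehicle, gave paired-end libraries of oligo-dT selected RNA, per the labels' protocols. Groups and replicate numbers came from the treatment labels and titles. The deposited values are FPKM, as judged from the values. The build in the submitters' processing notes is mm9, and for the aligner, counter, annotation and strand setting the entry is: not given in the sources used here. Symbols came from GENCODE M21, which matched 29538 of 30074 identifiers (98.2%). Sequences are on GRCm38 and carry no coordinates of the deposited values. Of the genes with an M21 exon length, 98.2% (29005 genes) gave whole reads in every library (tolerance 0.01 read), and this gave the library totals. Of read numbers 1 to 4, most were even, as when mates are counted apart.

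The fit was limma-trend (limma 3.58.1, R 4.3.3) on log2(FPKM + 1) of every gene that averaged 0.5 FPKM or more, on 10 libraries, with a term for group and no scaling. Calls are Benjamini-Hochberg adjusted p under 0.05 over all 13314 genes. The fit was tested on simulated data, where it called 12% of 1.25-fold, 58% of 1.5-fold, 92% of 2-fold and 98% of 4-fold changes. A gene that was not called may therefore still hold a small change. No label ties a library to its own animal, so p-values measure only the spread between libraries, which may be technical. The members and lists were chosen with earlier results of these data known. Text names all members, up to 3 called rises and 3 called falls of each list where the higher group reached 1 FPKM, their copies, cell markers, Hmox1, and the 3 genes most like Hamp, Slc40a1 and Tfrc. A few of these are not reported here. Hjv, Tf, Fdx2 and Ciao3 were found under older symbols. Alternatives were median-ratio scaling, cyclic loess, other pseudocounts (0.1 and 0.5), the filter left off or set at 1 FPKM, the replicate block, limma-voom on recovered reads, and libraries averaged or left out. Figures were drawn with matplotlib 3.10.9 and identities aligned with Biopython 1.88 in Python 3.11.15.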

Additional observations from a re-analysis of the deposited data

How the results depend on the processing

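Hamp, Steap3, Aco1 and Ncoa4 kept their direction and their call under all 22 alternatives, Hamp with log2 fold changes of 2.48 to 3.75. Ireb2 did so under 21, and lost its call at -0.12 with LPS+ART replicates 3 and 4 left out under median-ratio scaling. That setting was chosen after seeing the data, as was leaving out the 3 libraries with atrial markers.

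Median-ratio scaling gave 3975 genes higher and 4034 lower of all genes, 3 and 4 of the members, and 30 and 13 of the other lists. Cyclic loess gave 3856 and 3827 of all genes, 2 members higher, and 29 and 16 of the other lists. Median-ratio scaling without LPS+ART replicates 3 and 4 gave 3688 and 3749 of all genes, 4 and 3 members, and 26 and 15 of the other lists. Without the 3 libraries with atrial markers 5 genes of the other lists were called higher. Leaving out each library in turn gave 1401 to 1564 genes higher and 6530 to 7062 lower, 1 member higher and 4 to 6 lower, and 6 to 9 and 35 to 41 genes of the other lists.

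Slc40a1 lost its call after median-ratio scaling (-0.16), cyclic loess (-0.057), with no filter (-0.41), without LPS+ART replicates 3 and 4 (-0.33, and -0.10 with scaling) and without the libraries with atrial markers (-0.47), and ranged from -0.50 to -0.32 with single libraries left out. Tfrc turned to 0.031 without LPS+ART replicates 3 and 4, and to 0.34 with scaling. Fth1 turned to 0.39 after median-ratio scaling, to 0.019 with LPS+Vehicle replicates 2 and 5 averaged, to 0.082 without LPS+ART replicates 3 and 4 (0.42 with scaling) and to 0.012 without the libraries with atrial markers, and ranged from -0.055 to 0.042 with single libraries left out. Ftl1 turned to 0.23 after scaling and 0.17 without LPS+ART replicates 3 and 4 (0.50 with scaling), and ranged from -0.28 to 0.033. Slc11a2 turned to 0.19 after scaling, 0.17 with loess and 0.23 with scaling without LPS+ART replicates 3 and 4, and ranged from -0.20 to -0.12, called lower only without LPS+ART replicate 2 (limma adjusted p = 0.0405). The cause was not tested.

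Deviations of same-numbered hearts correlated at -0.07 to 0.18, so the numbers were not taken as pairs. In a fit with a replicate block, limma called 1533 genes higher and 6945 lower, 1 and 5 members, and changed no member's call. Low read numbers limit Hamp in LPS+Vehicle hearts.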
